A study of Mus musculus with 16 samples.

Results

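Genes that cells switch on in response to type I interferon were followed in mouse lung endothelial cells through the growth, removal and spread of a tumour. They were taken from a list of 35 gene symbols, and 32 of these were found among the 17715 entries of the deposited expression table. Mx1, Oas3 and Herc6 were not found under their symbols and are not analysed here. The cells had been isolated by fluorescence-activated cell sorting (FACS) from the lungs of female C57BL/6N mice, and total RNA was sequenced from 16 libraries, 4 at each of 4 time points. In 3 of the groups the mice carried or had carried Lewis Lung Carcinoma (LLC) cells under the skin: at d15 the primary tumour was in place, at d22 it had been resected, and at d36 the mice bore metastases. At d0 the mice were wild-type animals with no implanted tumour cells. The labels give neither the age of the mice, nor the sorting gates, nor how many mice went into a library. The library called d36 replicate 1 has a time point of d36, which was followed here, but a title that names day 29.

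Type I interferons are secreted by infected or stressed cells and bind a receptor made of Ifnar1 and Ifnar2. The receptor's kinases, Jak1 and Tyk2, phosphorylate the transcription factor Stat2, which joins Irf9 in a complex that binds the interferon-stimulated response element (ISRE) in front of its target genes. The targets include cytosolic sensors of viral RNA, proteins that block viral RNA or membranes, and feedback regulators. Endothelial cells carry this receptor and keep a low activity of the pathway in the absence of infection.

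The binding element is shown first because it is the feature these genes are known to share. RefSeq promoter sequences of mouse build GRCm38.p6, from 250 bases before to 50 bases after the start, were found for 24 of the 32 genes. The core of the element, GAAANNGAAA, was searched on both strands, so that its reverse form TTTCNNTTTC also counted. It was present in 12 of these 24 genes (95% Wilson interval of the share 31.4 to 68.6%), against 3.99% of the 27025 genes in the table. It was also present in 10 of 12 GTPase and chemokine genes typical of interferon gamma and in 12 of 30 other interferon-induced genes, the lists most like the set. Among endothelial markers it was present in 0 of 9, and among cycling-cell genes in 0 of 10. Parts of 6 promoters are printed in the direction of the gene, with the bases of the core matches in capitals and overlapping matches run together. They were chosen among the 8 genes with a match before the start, as the 6 with the lowest p in limma's F test over time, and they are ordered by that p.
Bst2: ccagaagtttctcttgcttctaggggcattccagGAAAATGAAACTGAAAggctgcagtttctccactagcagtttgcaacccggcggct
Isg15: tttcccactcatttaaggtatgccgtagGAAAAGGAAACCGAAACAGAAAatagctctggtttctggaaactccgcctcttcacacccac
Stat2: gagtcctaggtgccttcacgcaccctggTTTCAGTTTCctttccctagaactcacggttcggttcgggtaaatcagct
Ddx60: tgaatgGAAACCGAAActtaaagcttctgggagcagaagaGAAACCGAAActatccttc
Ifit3: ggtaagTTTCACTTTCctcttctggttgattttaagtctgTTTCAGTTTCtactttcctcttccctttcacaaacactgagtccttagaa
Ifit1: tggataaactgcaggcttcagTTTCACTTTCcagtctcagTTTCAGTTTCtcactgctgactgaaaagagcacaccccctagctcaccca
These stretches lie at chr8:71537547-71537636 for Bst2 and chr4:156200835-156200924 for Isg15, both on the minus strand. On the plus strand they lie at chr10:128270248-128270325 for Stat2, chr8:61928028-61928086 for Ddx60, chr19:34583367-34583456 for Ifit3 and chr19:34640764-34640853 for Ifit1. Isg15 held 3 overlapping matches, Bst2, Ddx60, Ifit3 and Ifit1 held 2 each, and Stat2 held 1. Irf7, Ifi35, Samd9l, Cmpk2 and Ifit2, which appear among the changed genes below, had no match in this window, and this says only that these letters were not in it. A match is a description of the sequence and was not tested as a binding site.

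The 32 genes lie on 14 chromosomes, and several are neighbours. Ifit1, Ifit2 and Ifit3, which code for proteins that bind viral RNA, lie together on chromosome 19. Oas1a, Oas2, Oasl1 and Oasl2 lie on chromosome 5, Cmpk2 and Rsad2 on chromosome 12, and Parp9 and Parp14 on chromosome 16. Exons of 10 of the genes overlap those of another annotated gene in GENCODE, in 7 of them on the opposite strand, among them Irf7 with Phrf1 and Dhx58 with its antisense transcript. How reads shared by overlapping genes, or by close copies such as those of Oas1a, Ifit3 and Ifitm3, were counted is not given in the sources used here, so the levels of these genes are uncertain to that extent.

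Values are in RPKM (mapped reads scaled to transcript length and library size), and changes were tested with limma on log2(RPKM + 1) in all 14303 entries that reached 1 RPKM in at least 4 libraries. All 32 genes passed this filter. A gene is called changed below where its Benjamini-Hochberg adjusted p was under 0.05, and it rose or fell only in that sense. No read totals are given, but the steps between low values put the depth of the deepest library at 1.63 times that of the shallowest. Every library held all 12 pan-endothelial markers, such as Pecam1 and Cdh5, above 0. Their summed level ran from 4010.0 to 5281 RPKM at d36, below the 5940.1 to 7039 RPKM at d0. Summed pan-leukocyte markers (9 of 10 found) ran from 46.1 to 142 RPKM at d36, against 32.2 to 40.1 RPKM at d0. Of the 7 tested, 6 rose, where 16.6% of all tested entries were called higher. Summed macrophage and monocyte markers (10 of 13 found) ran from 54.4 to 153 RPKM at d36, against 26.6 to 45.5 RPKM at d0. Summed markers of cycling cells (12 of 12 found) ran from 10.3 to 140.0 RPKM at d36, against 2.11 to 2.92 RPKM at d0. At d22, summed pan-endothelial markers ran from 4998 to 5651 RPKM, also below all d0 libraries, and summed cycling-cell markers from 3.04 to 18.1 RPKM, above all d0 libraries. Plasmacytoid dendritic cells are known to secrete type I interferon, and 5 of 8 of their markers were found. Siglech, Ccr9 and Klk1 were not found. The summed level of those found, without Bst2 as a gene of the set, ran from 20.5 to 23.9 RPKM at d22. At d36 it ran from 21.9 to 41.9 RPKM, and both lay above the 11.4 to 18 RPKM at d0. Bst2, Tcf4 and Ly6d were tested, while Runx2 and Spib did not pass the filter. Tcf4 rose at d22 and at d36, and Ly6d rose at d36. Over all tested entries, 8.09% were called higher at d22 and 16.6% at d36. Bst2, left out of the sum, fell from a mean of 657 RPKM at d0 to 384 RPKM at d36. At d15, summed macrophage and monocyte markers ran from 48.9 to 135 RPKM, above all d0 libraries. Of the 6 tested, 0 were called at d15, and their median log2 fold change was 0.14. Summed lung epithelial markers (11 of 12 found) ran from 1283 to 3440 RPKM at d15, against 808 to 1993 RPKM at d0. These differences accompany the comparisons below, and their part in the results was not tested. In sorted bulk samples, fewer cells of a type and less RNA per cell cannot be told apart.

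In tumour-free mice the genes spanned 3 orders of magnitude. Ifitm3, which codes for a membrane protein that blocks the entry of viruses, was the most abundant at 1647 ± 293 RPKM at d0 (SD, n = 4). Bst2, coding for tetherin, which holds budding viruses on the cell surface, followed at 657 ± 142 RPKM. Ifi35, an interferon-induced leucine zipper protein, had 229.8 ± 21.3 RPKM, and Lgals3bp, a secreted glycoprotein that binds galectin-3, had 142 ± 13.7 RPKM. The ranges of these 4 genes over the d0 libraries did not overlap with each other. Another 12 genes lay between 10 and 100 RPKM, led by Usp18 and Rtp4, and 16 lay under 10 RPKM, the lowest being Rsad2 at 1.44 ± 0.536 RPKM. Of the 31 pairs of neighbours in the order of levels, 24 had overlapping ranges, so most of the order below the top 4 is not resolved. Rsad2, Mx2 and Ifit2, which are known as strongly inducible antiviral genes, averaged 4.11 RPKM or less in tumour-free mice.

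Relative to d0, the median change of the set was near 0 at d15, above 0 at d22 and below 0 at d36, and at d22 and d36 its size rested in large part on single libraries. At d15, with the primary tumour in place, 0 of the 32 genes passed the limma test, where 1.18% of all tested entries did (0.608% higher and 0.573% lower). At an unadjusted p under 0.05, 3 genes were higher and 1 was lower, where 16.5% of all entries passed that mark. The fold change was below 0 for 21 genes, or 65.6%, against 53.3% of all entries. The median log2 fold change was -0.09, against -0.02 over all tested entries.

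At d22, after resection of the tumour, 4 genes rose: Samd9l, Cmpk2, Ifih1 and Ifit2. That is 12.5% of the set, where 8.09% of all tested entries were called higher. A single gene fell, Ifi35, or 3.12%, where 7.1% of all entries were called lower. The fold change was below 0 for 12 of the 32 genes, or 37.5%, against 46.9% of all entries. Its median was 0.14 on the log2 scale, against 0.02 over all entries. Leaving out 1 library at a time moved this median between 0.05 without d0 replicate 2 (0.03 over all entries) and 0.24 without d22 replicate 6, and it was 0.07 without d22 replicate 5. Both shares called stand near those of all entries, so the counts alone do not set the genes apart.

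At d36, with metastases, no gene of the set rose, where 16.6% of all tested entries were called higher. At an unadjusted p under 0.05, 1 gene was higher and 10 were lower, where 36.8% of all entries passed that mark. The 4 genes that fell were Ifi35, Bst2, Irf7 and Isg15, which is 12.5% of the set where 7.37% of all entries were called lower. The fold change was below 0 for 23 of the 32 genes, or 71.9%, against 45.1% of all entries, and its median was -0.29 on the log2 scale against 0.04. This lean rested mainly on d36 replicate 7, whose genes lay at a median of -0.97 from the d0 mean, while the other d36 libraries lay at 0.08, -0.09 and -0.10. Without that library the median was -0.09, with 4 genes called higher and 3 lower. With every library rescaled to the same sum, the calls over all entries split into 1579 higher and 2214 lower, in place of 2376 higher and 1054 lower, and the set then had 10 genes lower and none higher.

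The later time points were also set against each other. Between d22 and d15, 0 genes passed the limma test, where 3.06% of all tested entries did (2.0% higher and 1.06% lower). At an unadjusted p under 0.05, 4 genes were higher at d22 and 0 were lower, where 20.3% of all entries passed that mark. The fold change was below 0 for 7 of the 32 genes, against 43.9% of all entries. Between d36 and d22, 3 genes fell, Cmpk2, Irf7 and Dhx58, or 9.38% where 3.07% of all entries were called lower. No gene rose, and 0 were higher at an unadjusted p under 0.05, where 8.73% of all entries were called higher. With every library rescaled to the same sum, the calls over all entries in that comparison split into 693 higher and 1308 lower, in place of 1249 higher and 439 lower. The fold change was below 0 for 31 of the 32 genes, against 45.5% of all entries, and its median was -0.39 on the log2 scale against 0.03. The size of this median also rested in large part on d36 replicate 7. Without that library it was -0.18, against 0.04 over all entries. Comparisons that share the d0 or the d22 libraries are not independent of each other. The moderated F test of any difference between the 4 time points called 7 of the 32 genes, or 21.9%, where it called 28.7% of all entries. These were Ifi35, Samd9l, Cmpk2, Irf7, Bst2, Trim25 and Ifit2.

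**Figure D1:**
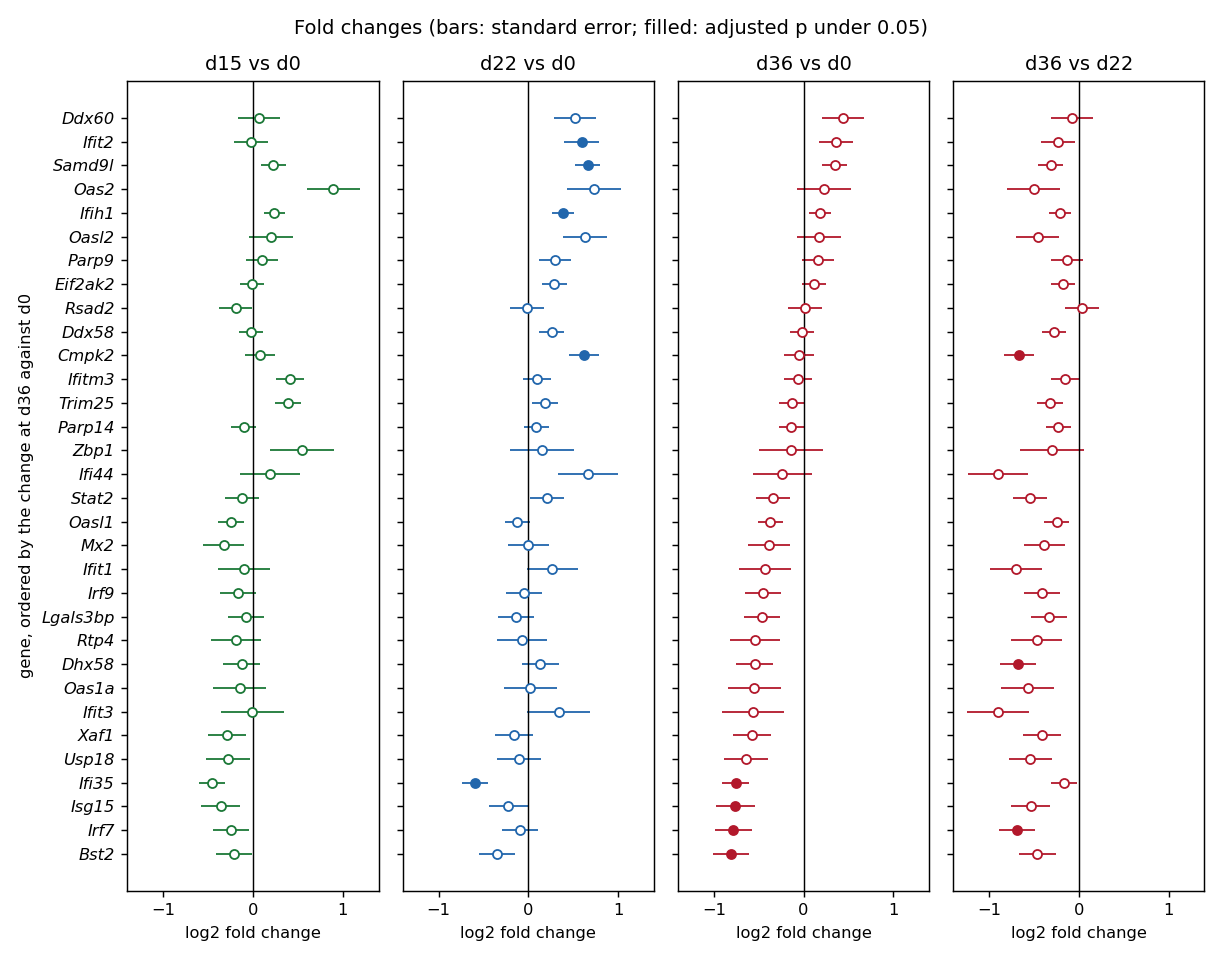
Log2 fold change (x axis, on the log2(RPKM + 1) scale) of each of the 32 genes (y axis) at d15, d22 and d36 against d0 and at d36 against d22, with limma's standard error as bars and filled points for an adjusted p under 0.05. In the panel of d36 against d22, 31 of the 32 points lie left of 0, and 3 of them are filled.

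Values per library follow in the order of the replicate numbers, which are 1 to 4 for d0 and 3 to 6 for d15, then 1, 4, 5 and 6 for d22, and 1, 7, 8 and 9 for d36. Among the 5 sensors, Ifih1 codes for MDA5, which detects long double-stranded RNA in the cytosol. Ifih1 had d0 levels of 11.1, 10.9, 9.87 and 11.4 RPKM and d15 levels of 13.6, 14.8, 12.3 and 11.3 RPKM. It had 15, 15.9, 13.7 and 13.4 RPKM in the d22 libraries, and 13.1, 9.36, 14 and 13.8 RPKM in the d36 libraries. All 4 d22 libraries lay above all 4 d0 libraries, and d36 replicate 7 was the lowest of the 16. Ifih1 rose at d22, with a log2 fold change of 0.39 ± 0.12 (SE) and an adjusted p of 0.0395 with limma, a call that held in 8 of the 16 fits that each left out 1 library. It was lost without any one of the 4 d0 or the 4 d22 libraries, at adjusted p of 0.0588 to 0.107. At d36 it stood at 0.18 ± 0.12 against d0, with an adjusted p of 0.289.

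Dhx58 codes for LGP2, a relative of MDA5 without signalling domains that tunes RNA sensing. Dhx58 had d0 levels of 10.2, 6.59, 8.87 and 8.11 RPKM and d15 levels of 6.76, 9.45, 6.96 and 7.34 RPKM. It had 9.82, 9.66, 10.3 and 7.51 RPKM in the d22 libraries, and 6.72, 2.71, 6.59 and 6.79 RPKM in the d36 libraries. The 4 d36 libraries lay below the 4 d22 libraries, with d36 replicate 7 far below the other d36 libraries, while d36 and d0 overlapped. At d36, Dhx58 fell by 0.68 on the log2 scale against d22 (SE 0.20), with an adjusted p of 0.0393, and 9 of the 16 fits without 1 library kept this call. It was lost without d0 replicates 3 or 4, d22 replicates 1, 4 or 5, or d36 replicates 7 or 8 (adjusted p of 0.0504 to 0.0974). Ddx58, which codes for the sensor RIG-I, averaged 8.92 ± 1.26 RPKM at d22 and 7.31 ± 1.22 RPKM at d0, and was not called in any of the 5 comparisons. Ddx60, a helicase linked to RIG-I signalling, averaged 3.35 ± 0.365 RPKM at d22 and 2.06 ± 0.498 RPKM at d0. Its d22 libraries all lay above its d0 libraries, and the adjusted p was 0.145. Zbp1, a sensor of Z-form nucleic acids that can trigger cell death, was the most variable sensor at d0, where replicate 1 had 17 RPKM and the other libraries lay between 4.86 and 6.72 RPKM.

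Irf7 is the transcription factor that amplifies interferon production and is itself induced by interferon. Irf7 had d0 levels of 45.7, 29.5, 35.9 and 39.4 RPKM and d15 levels of 26.2, 37.8, 30.8 and 31 RPKM. It had 37.7, 38.1, 41.3 and 24.7 RPKM in the d22 libraries, and 26.9, 14, 27.4 and 19.5 RPKM in the d36 libraries. All 4 d36 libraries lay below all 4 d0 libraries, and between d36 and d22 only d22 replicate 6 lay within the d36 range. At d36, Irf7 fell by 0.78 on the log2 scale against d0 (SE 0.20, adjusted p = 0.0108 with limma). Against d22 it fell by 0.69 (SE 0.20, adjusted p = 0.0355). The call against d0 held in all 16 fits without 1 library, with the highest adjusted p, 0.036, without d0 replicate 1. The call against d22 was lost without d22 replicates 1, 4 or 5 or d36 replicate 7 (adjusted p of 0.0792 to 0.118).

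Irf9 and Stat2 are the DNA-binding and the activating subunit of the factor that binds the ISRE. Irf9 had d0 levels of 41.6, 25.6, 30.8 and 33 RPKM and d15 levels of 26, 32.5, 29.8 and 26.9 RPKM. It had 33.5, 32.3, 37.4 and 23.3 RPKM in the d22 libraries, and 27.9, 14.1, 28.8 and 25.9 RPKM in the d36 libraries. Its highest library was d0 replicate 1 and its lowest d36 replicate 7, and the groups overlapped otherwise. Irf9 was not called at d36 against d0, at -0.45 ± 0.20 on the log2 scale (adjusted p = 0.109). Stat2 had d0 levels of 50.6, 31, 32.8 and 28.4 RPKM and d15 levels of 31.3, 30.2, 34.6 and 31.1 RPKM. It had 41.5, 43.2, 45.1 and 32.2 RPKM in the d22 libraries, and 31.1, 17.5, 29.9 and 33.4 RPKM in the d36 libraries. As in Irf9, d0 replicate 1 was the highest library and d36 replicate 7 the lowest. The change of Stat2 at d36 against d22 was -0.55 ± 0.19 (adjusted p = 0.0709), and against d0 it was -0.34 ± 0.19 (adjusted p = 0.202). Neither passed the threshold.

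Isg15 codes for a ubiquitin-like protein that is joined to other proteins during the antiviral response. Isg15 had d0 levels of 56.2, 35.5, 46.3 and 38.8 RPKM and d15 levels of 28.8, 43.1, 31.7 and 32.6 RPKM. It had 42.7, 39.5, 42.9 and 26.2 RPKM in the d22 libraries, and 27.2, 15.4, 33.9 and 28.7 RPKM in the d36 libraries. All 4 d36 libraries lay below all 4 d0 libraries. At d36, Isg15 fell by 0.76 on the log2 scale (SE 0.22, adjusted p = 0.0181 with limma). The call was lost in 2 of 16 fits without 1 library, with an adjusted p of 0.0572 without d36 replicate 7 and 0.0567 without d0 replicate 1. Usp18 removes Isg15 from its targets and dampens the interferon receptor. Usp18 had d0 levels of 74, 51.8, 60.4 and 68.9 RPKM and d15 levels of 45.4, 59.8, 52.9 and 50.7 RPKM. It had 64.9, 65.3, 71.5 and 39.1 RPKM in the d22 libraries, and 50.3, 21.2, 57 and 42.2 RPKM in the d36 libraries. Its d36 values overlapped those of d0 through d36 replicate 8, and d36 replicate 7 was again the lowest of the 16. Usp18 was not called at d36, at -0.64 ± 0.24 (adjusted p = 0.0638). Trim25, a ubiquitin ligase that activates RIG-I, had its highest mean at d15, where it averaged 27.6 ± 4.18 RPKM, against 20.8 ± 2.03 RPKM at d0 (adjusted p = 0.186).

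Of the 4 genes of the IFIT and IFITM group, 1 was called, Ifit2. Ifit2 had d0 levels of 2.71, 1.85, 1.46 and 1.87 RPKM and d15 levels of 1.96, 2.04, 1.37 and 2.27 RPKM. It had 4.15, 3.64, 3.63 and 2.49 RPKM in the d22 libraries, and 3.61, 1.44, 3.5 and 3.01 RPKM in the d36 libraries. The d22 libraries other than replicate 6 lay above all d0 libraries, and d22 replicate 6 lay below d0 replicate 1. Ifit2 rose at d22, at 0.59 ± 0.19 on the log2 scale with an adjusted p of 0.0454 by limma, and the call held in 7 of the 16 fits without 1 library. It was lost without d0 replicates 2, 3 or 4, d15 replicates 3, 4 or 6, or d22 replicates 1, 4 or 5 (adjusted p of 0.0517 to 0.128). Ifit1 averaged 27.9 ± 6.1 RPKM at d22 and 23.1 ± 6.05 RPKM at d0, and Ifit3 averaged 36.9 ± 7.63 RPKM at d22 and 30.1 ± 11.9 RPKM at d0. Neither was called, and in both d36 replicate 7 was the lowest of all 16 libraries, at 7.38 RPKM for Ifit1 and 7.33 RPKM for Ifit3. Ifitm3 averaged 2176 ± 276 RPKM at d15 and 1647 ± 293 RPKM at d0, a log2 difference of 0.41 ± 0.16 that did not pass the test (adjusted p = 0.201).

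The OAS enzymes make the short oligoadenylates that activate RNase L, and the OAS-like proteins are their relatives. None of the 4 measured was called. Oas2 showed the highest fold change of the set at d15. It had 15.7, 17.1, 19.1 and 15.4 RPKM at d15, against 11.4, 6.79, 8.05 and 8.51 RPKM at d0. All 4 d15 libraries lay above all 4 d0 libraries, and the log2 fold change was 0.89 ± 0.30, with an adjusted p of 0.143 with limma. At d22, Oas2 averaged 15.3 ± 4.33 RPKM, against 8.7 ± 1.97 RPKM at d0 (adjusted p = 0.109), and Oasl2 averaged 4.99 ± 1.31 RPKM, against 2.85 ± 0.733 RPKM at d0 (adjusted p = 0.0878). Oas1a and Oasl1 stood at 0.02 ± 0.29 and -0.12 ± 0.14 on the log2 scale at d22 and were not called. At d36 Oasl1 averaged 1.34 ± 0.334 RPKM, against 2 ± 0.239 RPKM at d0, without overlap between the libraries (adjusted p = 0.0678). No overlap with d0 was seen in 1 gene higher and 1 lower at d15 (5.34% and 6.94% of all entries), in 4 higher and 1 lower at d22 (14.2% and 12.3%), and in 0 higher and 5 lower at d36 (13.9% and 7.47%). At d22 against d15 it was 4 higher and 0 lower (10.2% and 4.8% of all entries), and at d36 against d22 it was 0 higher and 2 lower (9.49% and 4.11%).

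Among the other antiviral effectors, Samd9l, which restricts poxviruses and cell growth, had the lowest p of the set at d22. Samd9l had d0 levels of 10.2, 8.64, 8.91 and 7.86 RPKM and d15 levels of 9.95, 10.3, 11 and 10.9 RPKM. It had 15.2, 15.5, 16.2 and 11.9 RPKM in the d22 libraries, and 15.3, 8.51, 12.3 and 11.1 RPKM in the d36 libraries. The d22 libraries all lay above the d0 and the d15 libraries, and at d36 replicate 1 was as high as at d22 while replicate 7 was as low as at d0. Samd9l rose at d22, at 0.66 ± 0.14 on the log2 scale with an adjusted p of 0.00577 by limma, and the call held in all 16 fits without 1 library. Cmpk2, a mitochondrial nucleotide kinase next to Rsad2 on chromosome 12, had d0 levels of 9.64, 6.5, 7.56 and 6.21 RPKM and d15 levels of 8.81, 6.23, 7.45 and 9.28 RPKM. It had 10.0, 15.8, 10.4 and 12 RPKM in the d22 libraries, and 8.01, 5.37, 8.31 and 7.04 RPKM in the d36 libraries. All d22 libraries lay above all d0, d15 and d36 libraries. Cmpk2 rose at d22 against d0, at 0.62 ± 0.17 (adjusted p = 0.0204), and fell at d36 against d22, at -0.67 ± 0.17 (adjusted p = 0.0167). The rise was kept in 12 of 16 fits without 1 library, the exceptions being d0 replicates 2 and 4 and d22 replicates 4 and 6 (adjusted p of 0.0536 to 0.0675). The fall was kept in 14, the exceptions being d22 replicate 4 and d36 replicate 7 (adjusted p of 0.0523 to 0.0579). Its neighbour Rsad2, which codes for viperin, averaged 1.39 ± 0.215 RPKM at d22 and 1.44 ± 0.536 RPKM at d0 and was not called.

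Bst2 had d0 levels of 849, 531, 571 and 677 RPKM and d15 levels of 527, 619, 504 and 592 RPKM. It had 523, 558, 534 and 426 RPKM in the d22 libraries, and 324, 241, 452 and 520.5 RPKM in the d36 libraries. All 4 d36 libraries lay below all 4 d0 libraries, by a small margin between d36 replicate 9 and d0 replicate 2. At d36, Bst2 fell by 0.81 on the log2 scale (SE 0.20, adjusted p = 0.00919 with limma), a call kept in all 16 fits without 1 library. Mx2, an interferon-induced GTPase, and Eif2ak2, the kinase PKR that halts translation on double-stranded RNA, were not called in any comparison. Mx2 averaged 3.16 ± 1.7 RPKM at d36 and 4.11 ± 0.814 RPKM at d0, and Eif2ak2 averaged 3.08 ± 0.39 RPKM at d36 and 2.76 ± 0.3 RPKM at d0. GENCODE lists Mx2 as a polymorphic pseudogene, since some laboratory strains carry a broken copy. Parp9 and Parp14, a pair of ADP-ribosyltransferase family members that modulate interferon signalling, had low levels. Parp9 averaged 3.71 ± 0.622 RPKM at d22 and 2.92 ± 1.09 RPKM at d0, Parp14 averaged 3.6 ± 0.517 RPKM at d22 and 3.34 ± 0.678 RPKM at d0, and neither was called in any comparison.

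**Figure D2:**
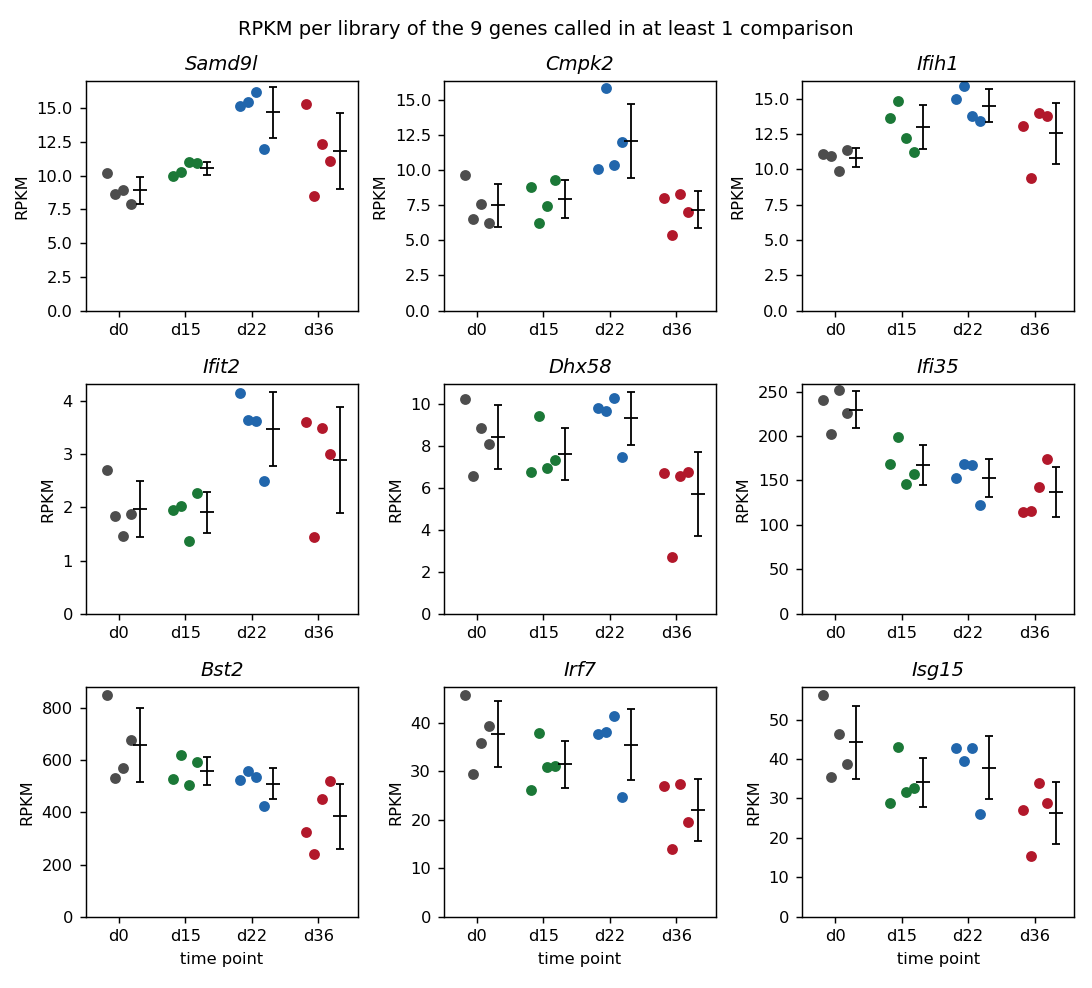
RPKM (y axes, from 0) in each of the 16 libraries by time point (x axes) for the 9 genes called in at least 1 of the 5 comparisons. Points are libraries in the order of their replicate numbers, and the bar beside them is the mean and SD of 4. Samd9l, Cmpk2, Ifih1 and Ifit2 have their highest mean at d22, and Ifi35, Bst2, Irf7 and Isg15 their lowest at d36.

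Ifi35 was the gene of the set with the lowest p over time. Ifi35 had d0 levels of 240.0, 202, 251 and 226 RPKM and d15 levels of 168, 199, 146 and 158 RPKM. It had 153, 168, 167 and 122 RPKM in the d22 libraries, and 115, 116, 143 and 174 RPKM in the d36 libraries. The d0 libraries lay above the libraries of every later time point. Ifi35 averaged 168 ± 22.5 RPKM at d15, 153 ± 21.3 RPKM at d22 and 137 ± 28 RPKM at d36, against 229.8 ± 21.3 RPKM at d0. It fell at d22, at -0.59 ± 0.15 on the log2 scale (adjusted p = 0.0133 with limma), and at d36, at -0.76 ± 0.15 (adjusted p = 0.00179). At d15 its fold change of -0.46 ± 0.15 missed the threshold (adjusted p = 0.131). The call at d36 held in all 16 fits without 1 library and that at d22 in 15, the exception being d22 replicate 6 (adjusted p = 0.052). Xaf1, which promotes cell death, averaged 15.9 ± 5.63 RPKM at d36 and 23.1 ± 3.29 RPKM at d0 (adjusted p = 0.0558). Ifi44, Lgals3bp and Rtp4 were not called in any comparison. The fold change of Ifi44 against d0 was 0.67 ± 0.33 at d22 (adjusted p = 0.189) and -0.24 ± 0.33 at d36 (adjusted p = 0.643).

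The variation between libraries of 1 time point was shared by many of the genes. In d36 replicate 7, 25 of the 32 genes (78.1%) had their lowest value of all 16 libraries, against 16.9% of all tested entries. The median of -0.97 from the d0 mean in that library stood against 0.01 over all entries. In d0 replicate 1, 13 genes (40.6%) had their highest value, against 7.68% of all entries, and in d22 replicate 5 it was 10 genes (31.2%), against 2.43%. The median coefficient of variation of the genes was 20.3% at d0, 14.9% at d15, 17.4% at d22 and 32% at d36. Over all entries it was 14.7% at d0, 16.5% at d15, 14.2% at d22 and 21.7% at d36, so at d15 the genes of the set had the lower value. The 7 genes that were not lowest in d36 replicate 7 were Ifitm3, Ifit2, Ddx58, Samd9l, Parp9, Eif2ak2 and Ifi35.

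**Figure D3:**
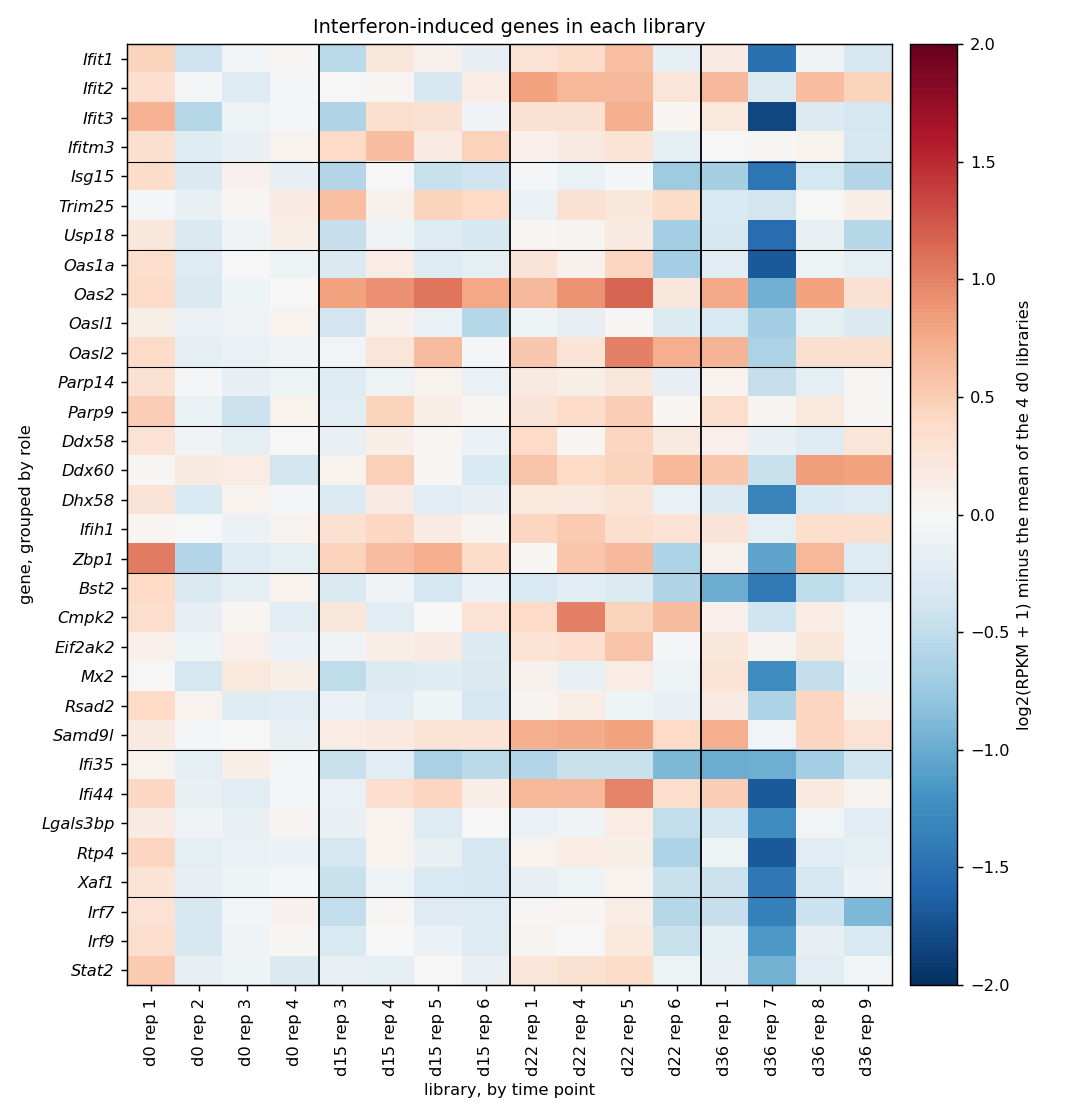
Log2(RPKM + 1) of the 32 genes (rows, grouped by role) in the 16 libraries (columns, by time point), as the difference from the mean of the 4 d0 libraries, in red where higher and in blue where lower. The column of d36 replicate 7 is blue for most genes, and d0 replicate 1 and d22 replicate 5 are red for most.

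Among the d36 libraries, replicate 7 had the lowest summed markers of lung epithelium and, by a small margin, of plasmacytoid dendritic cells. Summed pan-leukocyte markers were 99.2 RPKM in d36 replicate 7, within the d36 range of 46.1 to 142 RPKM. Summed pan-endothelial markers were 4794 RPKM and cycling-cell markers 86.8 RPKM, also within the d36 range. Summed lung epithelial markers (11 of 12 found) were 478 RPKM, against 707 to 1153 RPKM in the other d36 libraries. Those of plasmacytoid dendritic cells, without Bst2, were 21.9 RPKM, against 23.6 to 41.9 RPKM, and above the 11.4 to 18 RPKM at d0. The value of 23.6 RPKM was that of d36 replicate 1, where the set lay at a median of 0.08 from the d0 mean. Without d36 replicate 7, 7 genes were called at d36 against d0. Bst2, Ifi35 and Irf7 still fell, where 4.57% of all entries were called lower, and Isg15 was no longer called. Ddx60, Ifit2, Oas2 and Samd9l were called higher, which is 12.5% of the set where 14% of all entries were. At d36 against d22, 0 genes were then called, where 6.87% of all entries were, with adjusted p of 0.058 for Cmpk2 and 0.118 for Irf7, while 29 of 32 fold changes were below 0. Without d0 replicate 1, the median at d15 against d0 was 0.04 in place of -0.09, and that at d36 was -0.16. Without d36 replicate 1, whose title names another day, the same 4 genes fell at d36 against d0.

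**Figure D4:**
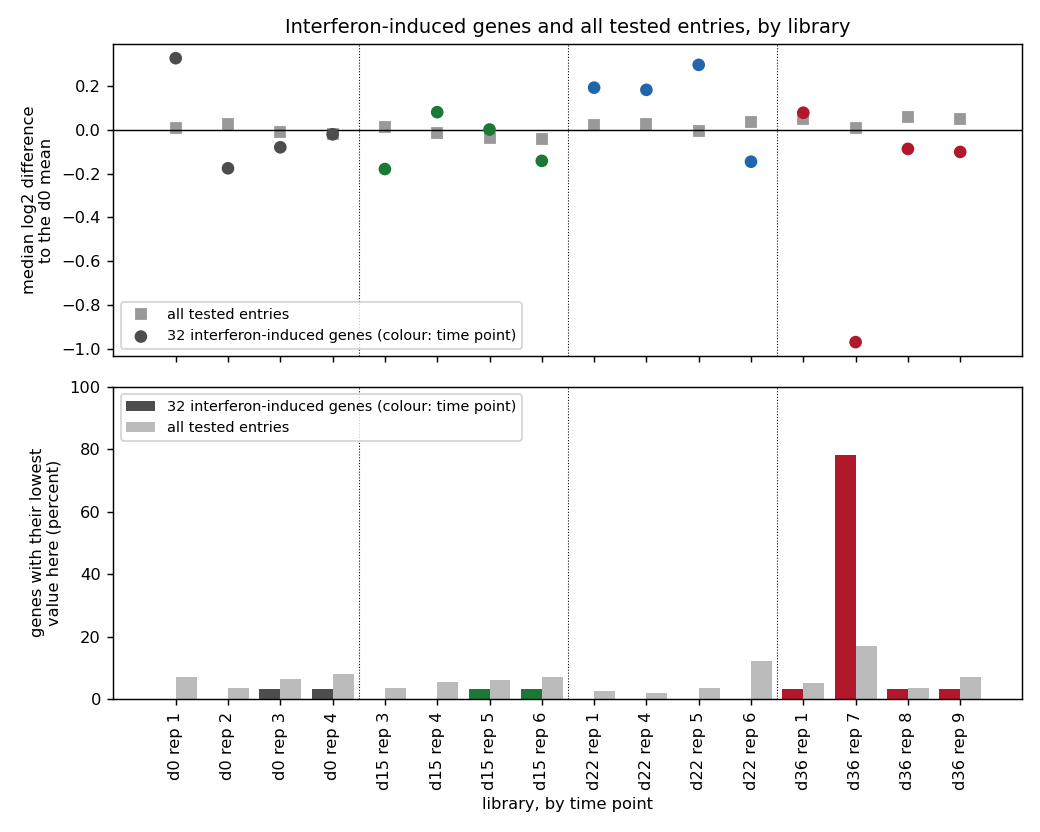
Upper panel: median log2 difference to the d0 mean (y axis) of the 32 genes (circles) and of all 14303 tested entries (squares) in each library (x axis). Lower panel: percent of the genes and of all entries whose lowest value of the 16 libraries is in that library. In d36 replicate 7 the circle lies at -0.97 and the bar at 78.1%, against 0.01 and 16.9% for all entries.

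Long and short transcripts moved apart, in the set and over all entries. Over the 32 genes, Spearman's rho between transcript length and fold change was 0.58 at d22 and 0.70 at d36 against d0, and 0.40 and 0.21 over the 10916 tested entries with a length. Genes share their libraries, so these are descriptions without a p. At d36, the 8 genes with transcripts under 2000 bases, among them Isg15, Bst2 and Ifi35, had a median log2 fold change of -0.60, and 0 of the 8 lay above 0. The 10 genes of 2000 to 3500 bases had a median of -0.41, and the 14 longer genes, among them Samd9l, Ifih1 and Ddx60, a median of 0.07. Over all entries with a length, the medians of these classes at d36 were -0.02, 0.06 and 0.16. Of those under 2000 bases, 47.3% lay above 0. At d22 the medians of the same classes were -0.09, 0.07 and 0.29 in the set, and -0.16, -0.04 and 0.12 over all entries. With the trend over length and GC content removed in each library, Cmpk2 was the 1 gene called at d22, where 3.34% of the 10916 entries were called higher and 4.64% lower. At d36, 9 genes were called lower, where 14.6% of the entries were: Bst2, Dhx58, Ifi35, Irf7, Irf9, Isg15, Parp14, Usp18 and Xaf1. With this correction, 4 calls at d22 were lost, those of Samd9l (0.32 on the log2 scale, adjusted p = 0.134), Ifih1 (0.14, adjusted p = 0.437), Ifit2 (0.41, adjusted p = 0.164) and Ifi35 (-0.39, adjusted p = 0.111). Calls over all entries at d22 were also fewer, 872 of 10916 in place of 2173 of 14303. The 4 genes that fell at d36 were called with the correction too, at -0.74 to -0.80 on the log2 scale. The cause of the relation with length was not tested.

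**Figure D5:**
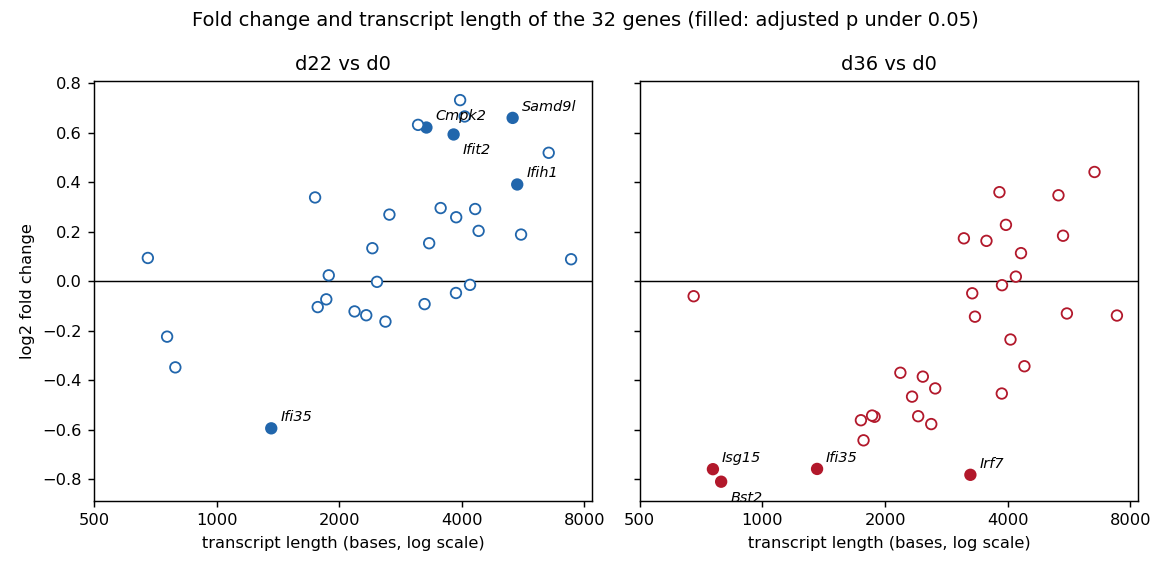
Log2 fold change (y axis) against transcript length (x axis, log scale) of the 32 genes at d22 and d36 against d0, with filled points for an adjusted p under 0.05. Spearman's rho was 0.58 at d22 and 0.70 at d36 (0.40 and 0.21 over all entries with a length). At d36, 0 of the 8 genes under 2000 bases lay above 0, where 47.3% of all entries of that length did.

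The table deposited by the study also holds log2 fold changes and adjusted p-values for d15, d22 and d36, without naming the group they are set against. In the authors' deposited table, Ifitm3, Oas2 and Trim25 were higher and Ifi35 lower at d15 at an adjusted p under 0.05. For Oas2 the authors' deposited table gives a log2 fold change of 0.98 and an adjusted p of 4.06e-08 at d15. At d22 the authors' deposited table has 8 of the genes higher and Ifi35 lower, and these include all 5 genes called here. At d36 the authors' deposited table has 0 genes higher and 5 lower, which are the 4 called here and Oasl1. It gives no adjusted p for Rtp4 at d36, so 31 of the 32 genes could pass there. The share of all deposited entries under that mark was not worked out, so these counts cannot be read as particular to the set. Fold changes had the same sign in the authors' deposited table and in the limma fit against d0 in 28, 31 and 32 of the 32 genes at d15, d22 and d36.

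The upstream part of the pathway was read from lists of other genes. None of 21 interferon genes was found under its symbol, nor was Ifnar1, so the ligands are not analysed here. Ifnar2, the other receptor chain, averaged 32 ± 2.77 RPKM at d36 and 34.7 ± 7.4 RPKM at d0, and was not called. Of the 7 receptors and kinases tested, Jak2, which serves interferon gamma and cytokine receptors, rose at d22 (0.51 ± 0.12 on the log2 scale, adjusted p = 0.011), at 1.35 ± 0.264 RPKM against 0.654 ± 0.141 RPKM at d0. Jak1, Tyk2, Ifngr1, Ifngr2 and Il10rb were not called. Over all tested entries, 8.09% were called higher at d22.

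Of the 7 STAT and IRF factors outside the set, Stat3 and Irf8 rose and Irf3 fell at d36, where 16.6% of all entries rose and 7.37% fell. Stat3, which responds to interleukin-6 and related cytokines, averaged 5.87 ± 1.05 RPKM at d36 and 3.03 ± 0.156 RPKM at d0. Irf8, a factor of myeloid cells, averaged 3.38 ± 2.13 RPKM at d36 and 0.584 ± 0.359 RPKM at d0, beside the higher leukocyte markers given above. Irf3, which drives the first wave of interferon production, changed by -0.37 ± 0.12 (adjusted p = 0.034). Of 8 other genes of nucleic acid sensing, Tmem173, which codes for STING, rose at d36 to 15 ± 6.38 RPKM, against 3.61 ± 0.759 RPKM at d0 (1.68 ± 0.28 on the log2 scale). Mavs, the adaptor of the RNA sensors, fell at d22 (-0.44 ± 0.13, adjusted p = 0.030). Of 9 negative regulators, 4 rose at d36, namely Ptpn11, Ptpn2, Socs3 and Tnfaip3, and 0 fell. Over all tested entries, 16.6% were called higher and 7.37% lower at d36. Socs3, an inhibitor of cytokine receptor kinases, had 18.8, 143, 14.2 and 3.66 RPKM at d36, against 6.02, 3.27, 3.11 and 3.84 RPKM at d0. Its highest value was in d36 replicate 7, the library in which the set was low, and d36 replicate 9 lay within the d0 range. The log2 fold change of Socs3 was 2.10, and 1.18 without d36 replicate 7. Tnfaip3, an inhibitor of NF-kappaB, also had its highest value in d36 replicate 7, at 18.4 RPKM, and its call was lost without that library (adjusted p = 0.109). Any link of Socs3 or Tnfaip3 with the low values of the set in that library was not tested. The call of Socs3 was lost without d0 replicates 2, 3 or 4 or d36 replicate 1 (adjusted p of 0.0525 to 0.0673), and that of Tnfaip3 also without d0 replicates 2, 3 or 4 or d36 replicates 1 or 8. The call of Irf3 was lost without d0 replicates 2 or 4 or d36 replicates 1 or 7 (adjusted p of 0.0824 to 0.107). That of Mavs was lost without d0 replicates 1, 3 or 4 or d22 replicates 1, 4 or 6 (adjusted p of 0.0646 to 0.0845).

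A further 37 interferon-induced genes outside the set were tested. At d22, Slfn5 and Dtx3l rose and Isg20 fell, where 8.09% of all entries were called higher and 7.1% lower. The calls of Slfn5, Dtx3l and Isg20 were kept in 16, 8 and 10 of the 16 fits without 1 library. At d36, 2 of the 37 rose and 5 fell, where 16.6% of all entries were called higher and 7.37% lower. Their median log2 fold change at d36 was -0.20. Ifitm1, a relative of Ifitm3, stood apart at d36 with 48.4 ± 26.2 RPKM, against 4.23 ± 0.557 RPKM at d0 (2.98 ± 0.38 on the log2 scale). Slfn5 averaged 27.0 ± 1.94 RPKM at d22 and 17.2 ± 2.08 RPKM at d0, and Isg20, an exonuclease, 15.9 ± 2.95 RPKM at d22 and 25.0 ± 4.58 RPKM at d0. Of 15 GTPase and chemokine genes typical of interferon gamma, Gbp7 rose at d22 to 31.2 ± 4.07 RPKM, against 14.4 ± 5.61 RPKM at d0. Cxcl10, a chemokine that draws T cells, rose at d36 to 5.90 ± 4.69 RPKM, against 0.489 ± 0.0853 RPKM at d0. The increases of Ifitm1 and Cxcl10 at d36 thus ran against the direction of Irf7, Isg15, Bst2 and Ifi35 in the same libraries, beside the leukocyte markers, whose part was not tested.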

How the data were processed

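Total RNA of sorted lung endothelial cells was sequenced from 4 groups of 4 libraries each. The authors deposited 1 table of RPKM values for 17715 entries, and beside them log2 fold changes with adjusted p-values at 3 time points, per the file headers. The submitters' processing notes name STAR, DESeq2 and the mouse build mm10, without versions. The counting method is not given in the sources used here. Since RPKM are not counts, no count test was run. Relative depth was read from the steps between low values, where 626 of 3987 low entries gave whole numbers of reads in each of the 16 libraries, within 0.1 read.

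Values were tested as log2(RPKM + 1) with limma 3.58.1 (R 4.3.3, intensity trend, 2-sided), in 1 fit of all 16 libraries and 4 groups, for the 14303 entries that reached 1 RPKM in 4 libraries or more. P-values were adjusted by Benjamini-Hochberg over all these entries in each comparison, with a threshold of 0.05. Fold changes are on the log2(RPKM + 1) scale, which understates the change of low genes. The script was tested on simulated data with independent noise for each gene, drawn from the spread at d0. Shifts shared by many genes of a library, as in d36 replicate 7, were not part of that simulation. Transcript lengths are those of GENCODE vM21, found for 10916 tested entries.

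The genes and all lists were chosen with earlier results of these data known. Values of every library are given for genes called in at least 1 of the 5 comparisons, and always for Irf7, Irf9, Stat2, Isg15 and Usp18. Other genes of the pathway are named by list, up to 4 a list by the smallest p. Oas2 at d15 was given in full after its values were seen. Alternatives were a pseudocount of 0.1, no filter, equal sums, quantile normalization, fits of only the 2 groups, array weights, a replicate block, a length and GC correction, and leaving out each library. A result of 1 gene of the pathway is not reported here.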

Additional observations from a re-analysis of the deposited data

Results flagged for a closer look

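Within groups of 4 libraries, 9 of 128 gene and time point combinations held a library far from the other 3, by Dixon's criterion for 4 samples. Chance flags about 1 in 20 groups. Of the 9, 5 were low values in d36 replicate 7. Dhx58 had 2.71 RPKM there, against 6.59 to 6.79 RPKM in the other d36 libraries. Irf9 had 14.1 RPKM against 25.9 to 28.8 RPKM, and Oas1a had 6.07 RPKM against 18.3 to 20.2 RPKM. Rtp4 had 18.6 RPKM against 53.0 to 57.4 RPKM, and Stat2 had 17.5 RPKM against 29.9 to 33.4 RPKM. Another 3 were low values in d22 replicate 6. Isg15 had 26.2 RPKM there, against 39.5 to 42.9 RPKM in the other d22 libraries, Rtp4 had 39.8 RPKM against 64.8 to 68.1 RPKM, and Usp18 had 39.1 RPKM against 64.9 to 71.5 RPKM. The last was a high value of Rtp4 in d0 replicate 1, with 83.2 RPKM against 54.1 to 57.0 RPKM in the other d0 libraries. The cause was not tested.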

How the results depend on the processing

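No fold change of the 32 genes changed direction among called values in any alternative. A pseudocount of 0.1 RPKM kept all calls in the 5 comparisons, and no filter lost 1 call. Counts of called genes, which were 0 at d15, 5 at d22 and 4 at d36 against d0, 0 at d22 against d15, 3 at d36 against d22 and 7 in the F test, moved as follows. The main fit called 1.18%, 15.2%, 24.0%, 3.06%, 11.8% and 28.7% of all entries in the same order. Shares of all entries called in the alternatives stand in brackets for comparisons of 2 time points. Counts of the F test in the alternatives stand without such shares, so they cannot be read as particular to the set. Equal sums gave 10 at d36 against d0 (26.5%), 2 at d22 against d15 (4.92%) and 11 at d36 against d22 (14%). They gave 12 in the F test. That scaling moved the median of all entries to -0.07 at d36 against d0 and to -0.12 at d36 against d22, in place of 0.04 and 0.03. Quantile normalization gave 3 at d22 (13.8%, Ifi35 not among the 3), 8 at d36 against d0 (25.8%) and 8 at d36 against d22 (12.8%). Fits of only the 2 groups gave 1 at d15 (3.34%), 9 at d22 (22.7%), 2 at d36 against d0 (14.3%), 2 at d22 against d15 (5.54%) and 0 at d36 against d22 (2.91%). Array weights gave 2, 12, 11, 2 and 7 in these comparisons, and 17 in the F test, with 5 of the 11 at d36 higher. Over all entries, array weights called 5.15%, 27.6%, 39.8%, 8.96% and 28.1% in the same order, also more than without weights. The length and GC correction gave 1 at d22 (7.99% of the 10916 entries with a length), 9 at d36 against d0 (25.0%) and 8 at d36 against d22 (11.1%). Leaving out 1 library at a time gave 0 to 1 at d15 (0.168 to 3.37%), 2 to 9 at d22 (8.23 to 20.2%) and 3 to 7 at d36 against d0 (17.0 to 35.0%). It gave 0 to 2 at d22 against d15 (0.951 to 7.12%), 0 to 7 at d36 against d22 (6.1 to 26.4%) and 3 to 10 in the F test. The cause was not tested. The ISRE core was present in 8 of 24 genes (33.3%) when searched only before the start, in place of 12 of 24.

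The titles do not say whether libraries with the same replicate number belong together. Of 9 pairs with the same number, 2 had a correlation of deviations over 0.1 (range -0.11 to 0.22). So few pairs cannot settle whether such libraries were handled together. Replicate numbers 7, 8 and 9 occur only at d36, so a replicate block leaves the d36 comparisons to d36 replicate 1 alone. With the block, the median change of the set at d36 was -0.20 against d0 (0.05 over all entries). Against d22 it was -0.27 (-0.01 over all entries). No calls are given for the d36 comparisons with the block. At d22 against d0, 2 genes were called with the block, where 9.04% of all entries were. The median change of the set at d22 was then 0.03, against 0.04 over all entries. With 4 libraries a group and levels near 1 to 4 RPKM, changes of genes such as Rsad2, Oasl1 or Ifit2 are limited by the spread between libraries and by the pseudocount.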
